A study of Mus musculus with 12 samples.

Results

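Integrins are the receptors that fasten cells to the matrix around them, and laminins are the cross-shaped proteins that build the basement membrane. The 37 protein-coding integrin and laminin genes described here were chosen by gene name alone from a table of 54532 genes, and comprise 26 integrin subunits and 11 laminin chains. Their RNA was measured by sequencing in 12 whole tibialis anterior muscles of mice of the strain labelled 129svlmJ, all taken 5 days after glycerol was injected to injure the muscle. In 6 control muscles the genotype was wild type, and in 6 muscles Pparg, the nuclear receptor that drives fat cell formation, was removed conditionally from FAPs, the fibro-adipogenic progenitors, the connective tissue cells that can turn into adipocytes. The driver of the deletion and the age of the mice are not given in the sources used here, and the labels do not say whether each library is a separate animal, so p-values measure the spread between these samples.

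An integrin is a pair of 1 alpha and 1 beta subunit, and the pair decides the ligand: collagen, laminin, the RGD motif of fibronectin and vitronectin, or partners on other cells. A laminin is a trimer of an alpha, a beta and a gamma chain joined in a coiled coil. In skeletal muscle the laminin with the alpha 2 chain surrounds each fibre and is held by the alpha 7 beta 1 integrin and by dystroglycan, the laminin with the alpha 4 chain is typical of the basement membranes of blood vessels and fat cells, and the alpha 5 chain is found in vessels and in the synaptic basement membrane of the neuromuscular junction.

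Library totals ran from 17983299 to 25613732 counts in controls and from 15716056 to 29790720 in knockouts, and the members took 0.216% to 0.311% of them. Pparg itself stood between 45.0 and 67.4 CPM (counts scaled to the library size) in controls and between 15.6 and 43.1 CPM in knockouts, with no overlap. The whole muscles carried high levels of muscle fibre markers, with summed levels of 10 markers from 18766 to 63793 CPM per library. Control replicates 2 and 6 and knockout replicate 6 were the lowest, at 22241, 22898 and 18766 CPM, and all other libraries had at least 40179 CPM. Summed levels of 10 adipocyte markers ran from 2543 to 4445 CPM in controls and from 419 to 1755 CPM in knockouts. In bulk tissue, fewer cells of a type and less RNA per cell cannot be told apart.

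The highest RNA per gene length belonged to Itgb1, the beta subunit shared by most matrix integrins, at 142 ± 11.9 FPKM (fragments scaled by gene length and library size) in controls and 154 ± 13.5 FPKM in knockouts (mean ± SD, 6 libraries per group). Itgb5, a partner of the alpha v subunit, followed at 45.4 ± 5.08 and 47.3 ± 5.29 FPKM, and Itgb2, the beta subunit of leukocytes, at 39.0 ± 8.68 and 36.4 ± 9.71 FPKM, so that these 2 lay within each other's spread. Itga7, the laminin receptor subunit of muscle fibres, was the highest alpha subunit, with 28.1% of all integrin alpha FPKM over the 12 libraries. Itga5, the fibronectin receptor subunit, held 20.7%, and Itgax, the alpha subunit known as CD11c, 10.8%. Among laminins, Lamc1, the gamma chain of nearly all muscle laminins, held 97.1% of gamma chain FPKM. Lama4 held 55.9% of alpha chain FPKM, more than Lama5 at 21.8% and Lama2 at 20.6%, whose FPKM shares were close to each other. Lamb2 held 57.9% and Lamb1 39.7% of beta chain FPKM. Orders and shares between genes depend on the gene length behind the FPKM, which for some genes is well above the longest transcript. It was 16338 bases for Lama2 against 9614, 9917 for Lamb1 against 5784 and 8092 for Itga7 against 4020. For Lama5 it was 11388 against 11388 and for Lamb2 6082 against 5629. Scaled to the longest transcript instead, Lama2 would stand above Lama5 and Lamb1 above Lamb2, so neither order is settled. At the other end Lama1, an early embryonic laminin chain, had 1 to 5 counts per control library and 0 to 21 per knockout library. Its count of 0 in knockout replicate 1 allows a level of up to 0.129 CPM, for counting error only. Lamc3 had 5 to 11 and 1 to 15 counts, and these 2 genes were too low to test.

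**Figure D1:**
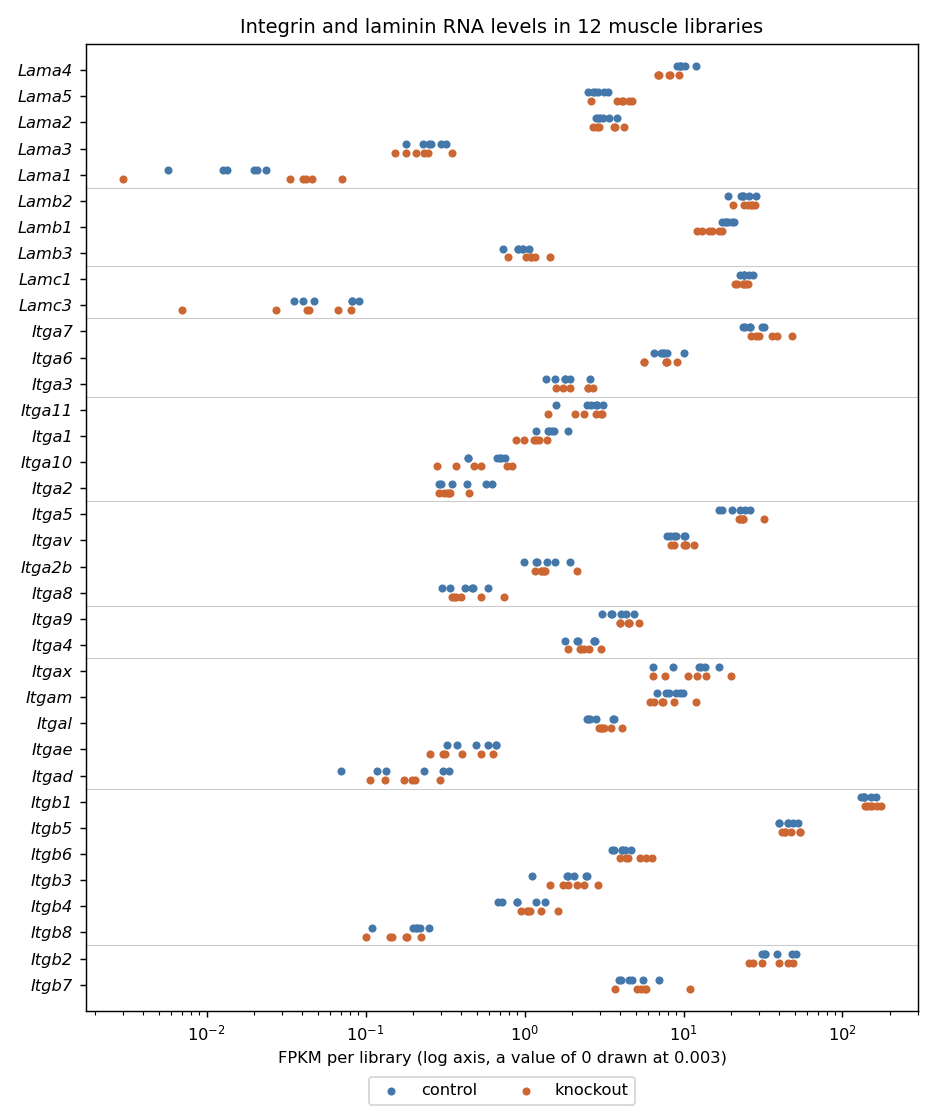
Level of each reported gene in every library, in FPKM on a log axis, grouped by role, with controls in blue and knockouts in orange. Itgb1 lies at the top of the scale at 142 to 154 FPKM on average, Lama1 and Lamc3 lie below 0.1 FPKM, and the orange and blue points overlap for nearly all genes.

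The comparison of knockout with control asks which integrin and laminin transcripts depend on Pparg in FAPs after injury. Of the 35 members tested, 0 were called at 0.05 after Benjamini-Hochberg adjustment over 16393 genes (edgeR quasi-likelihood test). Over all tested genes 0.799% were called, 0.75% lower and 0.0488% higher in knockouts. At an unadjusted p under 0.05 there were 6 members, with Lama4, Lamb1 and Itga1 lower and Lama5, Itgb6 and Itga7 higher in knockouts. Over all tested genes 5.68% were lower and 3.79% higher at that limit. The 6 make up 17.1% of the tested members against 9.47% of all tested genes. Each of the 6 had a mean level of at least 16 CPM, where the share was 6 of 20 members against 9.49% of genes. That level was not planned in advance and keeps all 6 while fewer members are counted, so the larger share is no separate result. DESeq2 and limma-voom each called 3 members, Lama4 (adjusted p = 0.0222 and 0.00964), Lamb1 (0.0163 and 0.0180) and Lama5 (0.0315 and 0.0282). Both also called more genes in all than edgeR, 372 with DESeq2 and 393 of 16393 with limma-voom, against 131 of 16393. DESeq2 gave a p-value for 31950 genes, but its default filter leaves fewer for the adjustment. That smaller number was not counted, so no share is given for DESeq2. The median log2 fold change of the tested members was 0.05, with 19 above 0 and 16 below it, and values ran from -0.39 to 0.46, against a median of -0.0013 over all genes. In 1 member, Lamb1, the groups did not overlap, which is 2.86% of members against 1.43% of all tested genes, or 1.27% for genes lower in knockouts.

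**Figure D2:**
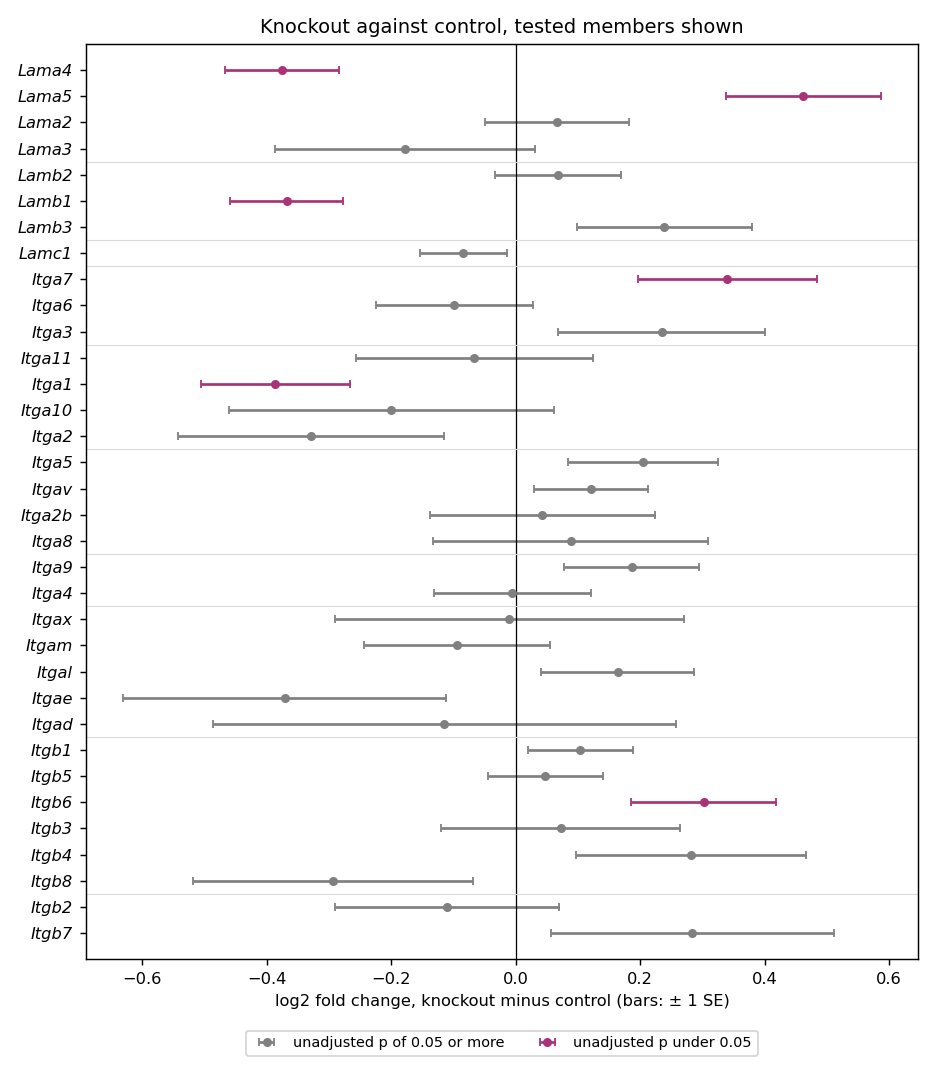
Log2 fold change of knockout minus control for the reported genes that were tested (points, with bars of 1 SE), grouped by role in the same order as the levels. The 6 genes in colour had an unadjusted p under 0.05, and 0 of the genes shown passed after adjustment over all genes.

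The 250 bases before the transcription start are shown for the members with an unadjusted p under 0.05 that matched the RefSeq promoter table (GRCm38.p6), because Lamb1 and Itga1 were lower and Lama5 and Itgb6 higher in knockouts. Capitals mark every match, on either strand, to the E-box CANNTG or the GC box GGGCGG, the only 2 of 4 searched motifs found in them.

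Lamb1 (chr12:31265043-31265292, plus strand): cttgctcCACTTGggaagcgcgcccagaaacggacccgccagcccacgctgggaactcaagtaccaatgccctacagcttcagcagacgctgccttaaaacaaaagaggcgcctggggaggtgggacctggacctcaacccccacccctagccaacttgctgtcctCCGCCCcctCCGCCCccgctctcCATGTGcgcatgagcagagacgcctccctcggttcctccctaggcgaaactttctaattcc

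Itga1 (chr13:115101965-115102214, minus strand): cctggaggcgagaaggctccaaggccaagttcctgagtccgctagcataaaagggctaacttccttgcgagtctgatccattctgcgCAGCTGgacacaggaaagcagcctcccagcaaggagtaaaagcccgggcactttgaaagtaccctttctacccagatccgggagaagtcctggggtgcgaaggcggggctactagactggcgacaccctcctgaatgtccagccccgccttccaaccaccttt

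Lama5 (chr2:180225860-180226109, minus strand): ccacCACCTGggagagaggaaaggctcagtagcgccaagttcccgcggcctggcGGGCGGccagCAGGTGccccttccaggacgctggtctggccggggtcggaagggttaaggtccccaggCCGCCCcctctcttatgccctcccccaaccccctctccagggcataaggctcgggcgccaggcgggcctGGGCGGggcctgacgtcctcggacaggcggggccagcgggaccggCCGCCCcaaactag

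Itgb6 (chr2:60722604-60722853, minus strand): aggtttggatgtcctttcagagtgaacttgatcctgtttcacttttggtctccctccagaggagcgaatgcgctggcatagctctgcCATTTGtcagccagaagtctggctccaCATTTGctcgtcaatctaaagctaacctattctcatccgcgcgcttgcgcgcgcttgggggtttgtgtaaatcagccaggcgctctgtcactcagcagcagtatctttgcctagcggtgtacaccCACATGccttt

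Lamb1 holds 2 E-boxes and 2 GC boxes, Lama5 2 E-boxes and 4 GC boxes, Itga1 1 E-box and Itgb6 3 E-boxes. The windows of Lama5 and Lamb1 are richer in G and C, at 72.4% and 62.0%, than those of Itga1 and Itgb6, at 57.6% and 52.0%. Of 23 members matched in the table, 18 held an E-box and 8 a GC box, which is 78.3% and 34.8% against 66.2% and 33.0% of all 32536 windows of that length. Each member gave 1 window, while the background counts every distinct window. For Itga9, Lamb3 and Lama2, all among the 18, the start used lies 105002, 94295 and 2816 bases from the 5' end of the counted gene. AGGTCA, the half-site of nuclear receptors, and TATAAA, the other motifs searched on both strands, occurred in 0 of the 23 and in 14.0% and 12.3% of all windows. A match is a description of these letters and shows no binding.

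Among laminin alpha chains, Lama4 and Lama5 differed in opposite directions. Lama4 (ENSMUSG00000019846, chromosome 10, 38965515 to 39110188, plus strand, GRCm38), the alpha chain of vessel and fat cell basement membranes, had a lowest, median and highest level of 111, 117 and 146 CPM in controls, against 83.3, 91.9 and 113 CPM in knockouts. All knockout libraries except replicate 6 lay below every control. The difference of -0.38 on the log2 scale (SE 0.09) had an edgeR quasi-likelihood p of 0.00111, or 0.0849 once adjusted, and the adjusted value ran from 0.0553 to 0.260 with each library left out in turn. Lama5 (ENSMUSG00000015647, chromosome 2, 180176373 to 180225859, minus strand) had levels of 28.7, 32.5 and 38.4 CPM in controls, against 29.9, 47.3 and 54.5 CPM in knockouts. All knockout libraries except replicate 2, at 29.9 CPM, lay above every control. The difference of 0.46 on the log2 scale (SE 0.12) had an edgeR quasi-likelihood p of 0.00238, or 0.125 after adjustment. With each library left out in turn the adjusted value ran from 0.0117, without knockout replicate 2, to 0.279, without knockout replicate 3.

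Lama2, the alpha chain of the fibre's own laminin, stood at 52.4 ± 6.39 CPM in controls, against 54.9 ± 9.94 CPM in knockouts (mean ± SD, 6 libraries per group), with a log2 fold change of 0.07 (SE 0.12). Knockout replicate 3 had the highest Lama2 level of all libraries, 69.2 CPM, and the groups overlapped. Lama3, an alpha chain of epithelia, stood at 1.95 to 3.49 CPM in controls, against 1.65 to 3.76 CPM in knockouts.

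Among beta and gamma chains, Lamb1 was the one with the smallest p. Lamb1 (ENSMUSG00000002900, chromosome 12, 31265234 to 31329644, plus strand), the beta chain that joins alpha 2 or alpha 4 with gamma 1, had levels of 175, 189 and 206 CPM in controls, against 122, 147 and 174 CPM in knockouts. The 6 knockout libraries all lay below the controls, but the gap was narrow, from 173.6 CPM in knockout replicate 1 to 174.8 CPM in control replicate 3. With DESeq2 size factors or with library totals in place of TMM scaling the groups overlapped. The difference of -0.37 in log2 units (SE 0.09) had an edgeR quasi-likelihood p of 0.00118, or 0.0869 once adjusted. With each library left out in turn the adjusted value ran from 0.0401, without knockout replicate 1, to 0.231, without knockout replicate 5. Lamb2, the beta chain found at synapses and in vessels, had a log2 fold change of 0.07 (SE 0.10), and Lamc1 one of -0.08 (SE 0.07). Lamb3, the beta chain of epithelial laminin, stood at 6.31 CPM in the median control and 7.28 CPM in the median knockout. Lamb3 overlaps G0s2 and Hsd11b1 on the opposite strand, and both carry more counts than it, so its value is uncertain if strand was not used in the counting.

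The make-up of the laminin transcripts shows these differences as shares of FPKM. Lama4 made up 61.2% ± 3.43 of alpha chain FPKM in controls and 50.6% ± 6.80 in knockouts, Lama5 17.7% ± 2.07 and 25.9% ± 4.21, and Lama2 19.4% ± 2.14 and 21.7% ± 3.52 (mean ± SD, 6 libraries per group). Lamb1 made up 43.5% ± 4.32 of beta chain FPKM in controls and 36.0% ± 4.97 in knockouts. The ratio of Lama5 to Lama4, chosen after its values were seen and not tested, was 0.209 to 0.350 in controls and 0.316 to 0.693 in knockouts. It lay above every control in all knockouts except replicate 2, and was highest in knockout replicates 3, 4 and 5.

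**Figure D3:**
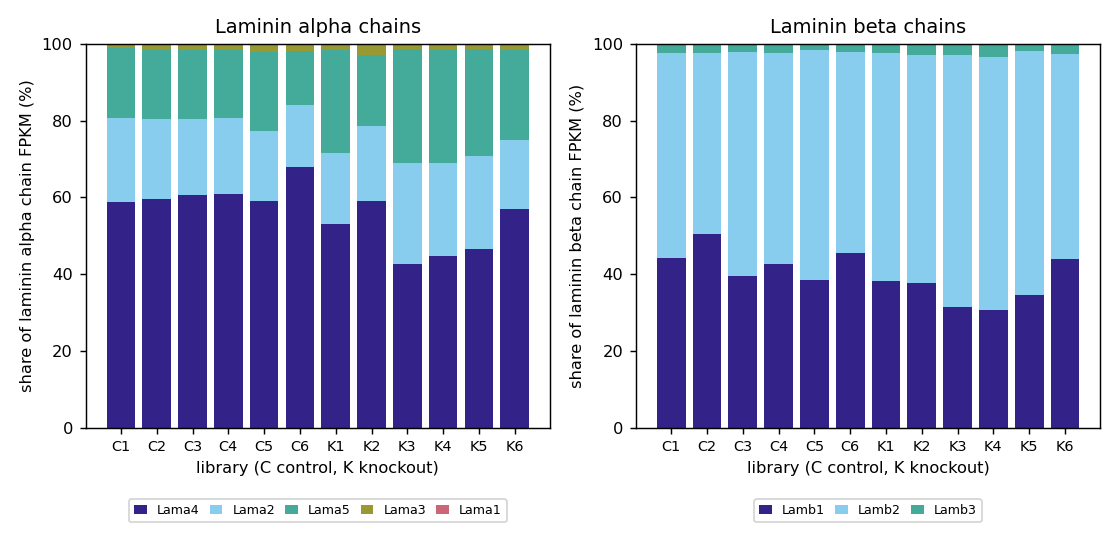
Share of each chain in the summed FPKM of the laminin alpha chains (left) and beta chains (right), 1 bar per library, C1 to C6 controls and K1 to K6 knockouts. The Lama4 share is 58.8% to 68.0% in controls and 42.8% to 59.2% in knockouts, lowest in K3, K4 and K5.

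Summed levels of 10 FAP markers were 1508 to 2044 CPM in controls, against 991 to 1625 CPM in knockouts, with 8 of 10 log2 fold changes negative, and the adipocyte markers had negative values in 10 of 10. Of 8 endothelial markers 7 lay below 0, at a median log2 difference of -0.08, and their sum overlapped between groups (269 to 353 and 196 to 342 CPM). No marker on these 3 lists was at 0 in all libraries. The part of these cells in the lower Lama4 and Lamb1 levels was not tested.

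Of the laminin-binding integrin alpha subunits, Itga7 had the largest difference. Itga7 (ENSMUSG00000025348, chromosome 10, 128933818 to 128958282, plus strand) had levels of 194, 214 and 264 CPM in controls, against 216, 269 and 394 CPM in knockouts. Knockout replicates 3, 4 and 5, at 394, 317 and 296 CPM, lay above every control, and replicates 1, 2 and 6 lay within the control range. The difference of 0.34 in log2 units (SE 0.14) had an edgeR quasi-likelihood p of 0.0327, or 0.443 once adjusted. Itga6, the laminin receptor subunit of endothelium and epithelium, had a log2 fold change of -0.10 (SE 0.13) and Itga3 one of 0.23 (SE 0.17). Itgb1, the beta partner of all 3, stood at 540 to 664 CPM in controls, against 570 to 710 CPM in knockouts.

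The collagen receptor subunits all lay below 0 in log2 fold change, at a median of -0.26 over 4 genes, and 0 of 4 passed the test. Itga1 (ENSMUSG00000042284, chromosome 13, 114953096 to 115101964, minus strand), which binds collagen IV, had levels of 22.1, 27.5 and 35.4 CPM in controls, against 16.7, 21.9 and 26.0 CPM in knockouts. Knockout replicates 2, 3 and 4 lay below every control and the other 3 within the control range. The difference of -0.39 in log2 units (SE 0.12) had an edgeR quasi-likelihood p of 0.00631, or 0.207 once adjusted. Pelo lies within Itga1 on the same strand, with 18.04% as many counts, so that reads of the shared stretch are uncertain. Itga2, Itga10 and Itga11, the other collagen receptor subunits, had values of -0.33, -0.20 and -0.07 with SE of 0.21, 0.26 and 0.19. Itga10 shares 32.0% of its 50-base words with Gm42957, a gene model that overlaps it.

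The 4 subunits that bind the RGD motif all lay above 0 in log2 fold change, at a median of 0.10, and 0 of 4 passed. Itga5 stood at 83.3 to 129 CPM in controls, against 111 to 157 CPM in knockouts, and Itgav, which pairs with several beta subunits, at 86.2 to 110 and 89.6 to 125 CPM. Itga8 and Itga2b, the alpha subunit of platelets, had values of 0.09 (SE 0.22) and 0.04 (SE 0.18). Of the beta subunits that pair with alpha v, Itgb6 (ENSMUSG00000026971, chromosome 2, 60598292 to 60722643, minus strand), known for activating latent TGF-beta in epithelia, had the smallest p. Its levels were 25.4, 29.6 and 34.0 CPM in controls, against 28.5, 35.1 and 45.4 CPM in knockouts. Knockout replicates 3, 4 and 5 lay above every control, the same 3 libraries as for Itga7, and the others within the control range. The difference of 0.30 in log2 units (SE 0.12) had an edgeR quasi-likelihood p of 0.0216, or 0.376 once adjusted. Itgb5, Itgb3 and Itgb8 had values of 0.05, 0.07 and -0.29 with SE of 0.09, 0.19 and 0.23, and Itgb4, the partner of alpha 6 in hemidesmosomes, 0.28 (SE 0.18). Itga4 and Itga9, which bind VCAM-1 and matrix ligands, stood at -0.01 (SE 0.13) and 0.19 (SE 0.11).

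Sums of some cell type markers were also high in some of these knockout libraries. The sum of 8 markers of differentiating myocytes was 6722 to 11167 CPM in controls, against 7587 to 14091 CPM in knockouts, above every control in knockout replicates 3 and 5. The sum of 8 satellite cell markers was 268 to 340 CPM in controls, against 285 to 485 CPM in knockouts, above every control in knockout replicates 3 to 6. Log2 fold changes were positive for 8 of 8 myocyte and 6 of 8 satellite cell markers. Mural cell markers, with 4 of 8 log2 fold changes positive and 4 negative, had a sum of 674 to 921 CPM in controls. This sum was also higher in knockout replicates 3 and 5, at 967 and 970 CPM. The muscle fibre sum, 22241 to 51187 CPM in controls, was within that range in both, at 47317 and 48222 CPM. None of these markers was at 0 in all libraries, and their part in the levels of Itga7, Itgb6 and Lama5 was not tested.

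**Figure D4:**
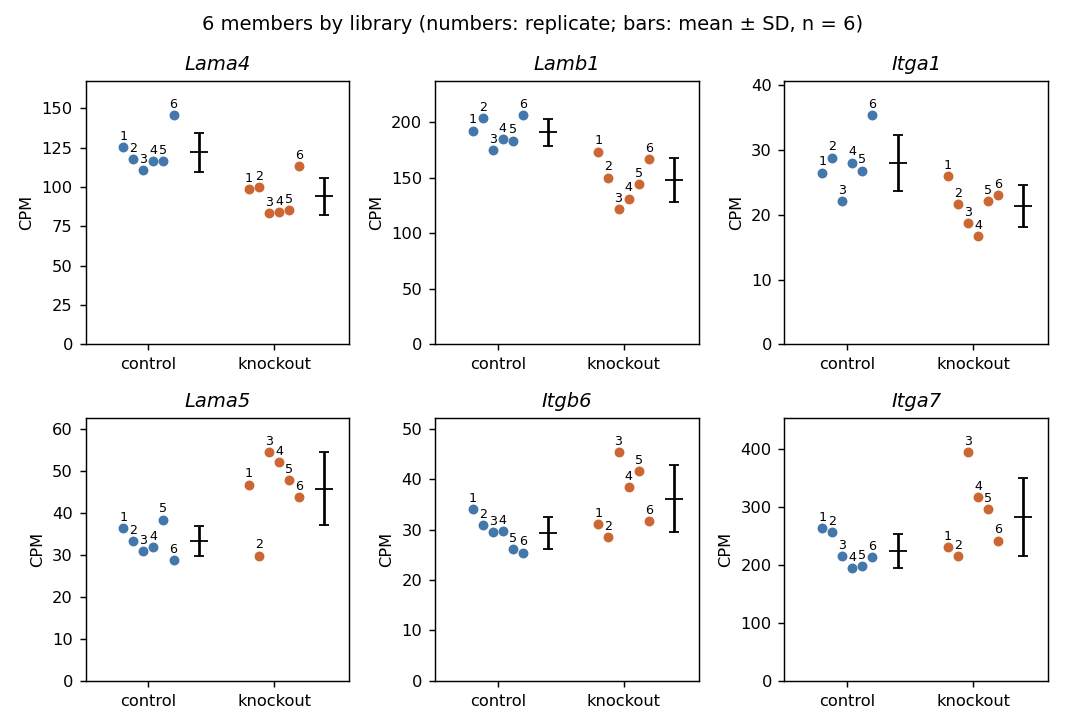
CPM of the 6 genes with an unadjusted p under 0.05 in every library, with the replicate number above each point and the mean ± SD of 6 libraries beside each group. Lama4, Lamb1 and Itga1 (top) have a lower mean and Lama5, Itgb6 and Itga7 (bottom) a higher mean in knockouts, and knockout replicates 3, 4 and 5 are the highest knockouts for all 3 genes of the bottom row.

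The leukocyte integrins did not pass the test in either direction. Itgb2 stood at 96.7 to 158 CPM in controls, against 79.0 to 150 CPM in knockouts (log2 fold change -0.11, SE 0.18). Its alpha partners Itgax, Itgam and Itgal, found on macrophages, dendritic cells, neutrophils and lymphocytes, had values of -0.01, -0.09 and 0.16 with SE of 0.28, 0.15 and 0.12. Itgax ranged widely within the groups, from 31.1 to 81.7 CPM in controls and from 31.3 to 96.2 CPM in knockouts. The sum of 10 macrophage markers was 7126 to 8655 CPM in controls, against 5451 to 9374 CPM in knockouts. Itgad, at 0.322 to 1.52 CPM in controls, had the lowest CPM of the tested members, while per gene length Itgb8 was as low, at 0.181 FPKM over all libraries against 0.192 FPKM for Itgad. Itgal, Itgam, Itgax and Itgad lie within 1 stretch of chromosome 7, from 127296260 for Itgal to 128154376 for the start of Itgad. Itgad shares 22.0% of its 50-base words with Itgax and other genes and overlaps Cox6a2, which carries more counts, on the opposite strand. Itgam shares 72.4% of its words with Gm49368, a gene model on the same strand, and the values of both integrins are uncertain for this reason.

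Itgb7, the beta subunit of gut-homing and tissue-resident lymphocytes, had a value of 0.28 (SE 0.23) and Itgae, its partner CD103, one of -0.37 (SE 0.26), uncertain because Haspin overlaps it on the opposite strand with more counts. Itgb7 stood at 30.5 CPM in knockout replicate 2 and at 10.4 to 16.3 CPM in the other 5 knockouts. The sum of 10 T and NK cell markers was also highest in knockout replicate 2, at 44.9 CPM, against 14.2 to 29.6 CPM in controls, with 9 of 10 log2 fold changes positive and none at 0 in all libraries. That library also had the highest sums of macrophage, neutrophil and erythroid markers, at 9374, 61.2 and 1833 CPM. Its sums of dendritic and mast cell markers, 32.5 CPM, and of B cell markers, 49.0 CPM, were below the highest controls, at 36.0 and 54.7 CPM. The part of these cells in the Itgb7 level was not tested. Without knockout replicate 2 the log2 fold change of Itgb7 was 0.04.

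The partner genes of these receptors were described from 4 lists. Of 23 tested basement membrane partners of laminin, 2 fell and 0 rose, where 0.75% of all tested genes were called lower. At an unadjusted p under 0.05, 8 were lower and 0 higher, against 5.68% and 3.79% of all genes. The median log2 fold change was -0.19, with 17 of 23 below 0. Col4a1, a chain of the collagen IV network that binds the integrin with alpha 1, fell from 591 ± 63.2 to 423 ± 47.7 CPM (mean ± SD of 6 libraries per group, -0.48 in log2 units, SE 0.10, edgeR quasi-likelihood adjusted p = 0.0339). All 6 knockouts lay below every control. Col15a1, a collagen that links basement membranes to the surrounding matrix and is also on the FAP marker list, fell by 0.52 on the log2 scale (SE 0.09, edgeR quasi-likelihood adjusted p = 0.0208), with 6 of 6 knockouts below every control. With each library left out in turn Col4a1 passed in 3 of 12 fits (adjusted p 0.0339 to 0.101, lost without control replicates 1, 2, 4, 5 and 6 and knockout replicates 3 to 6). Col15a1 passed in 8 of 12 (0.0132 to 0.0701, lost without control replicates 2 and 4 and knockout replicates 3 and 4), and neither passed with library totals as scaling. Smoc1, a calcium-binding basement membrane protein, stood at 35.7 ± 9.83 and 16.5 ± 6.09 CPM (edgeR quasi-likelihood adjusted p = 0.0714). Col4a2, the partner chain of Col4a1 and named after its value was seen, differed by -0.41 in log2 units (SE 0.10, edgeR quasi-likelihood adjusted p = 0.0822), but was called with DESeq2 (adjusted p = 0.00931) and limma-voom (adjusted p = 0.0300).

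Of 33 tested adaptors inside the cell that couple integrins to actin, 0 passed and the median was 0.07. At an unadjusted p under 0.05, 3 adaptors were higher and 3 lower, where 3.79% and 5.68% of all tested genes were. Pxn, the focal adhesion scaffold paxillin, stood at 155 ± 8.81 CPM in controls, against 183 ± 13.0 CPM in knockouts, with all 6 knockouts above every control, as in 0.159% of all tested genes (edgeR quasi-likelihood adjusted p = 0.132). Bcar1, the scaffold p130Cas, and Flnc, the muscle filamin, had log2 fold changes of 0.29 and 0.37 with SE of 0.08 and 0.12. Of 18 laminin receptors outside the integrins and enzymes that glycosylate dystroglycan, 0 passed, 1 was higher and 1 lower at an unadjusted p under 0.05, and the median was 0.10. The 3 with the smallest p were Pomt1, a mannosyltransferase for dystroglycan, at -0.23 (SE 0.07), Dtna, dystrobrevin alpha, at 0.52 (SE 0.17), and Sgce, a sarcoglycan, at -0.19 (SE 0.11). For Pomt1 all 6 knockouts lay below every control, as in 1.27% of all tested genes. Of 29 tested other ligands of integrins, 0 passed and the median was 0.0019. At an unadjusted p under 0.05, 5 ligands were higher and 4 lower, again beside 3.79% and 5.68% of all genes. Vtn, vitronectin, stood at 8.40 ± 1.89 and 4.47 ± 1.65 CPM, Col3a1, a fibrillar collagen, had a log2 fold change of -0.44 (SE 0.14), and Npnt, a ligand of the integrin with alpha 8, one of 0.35 (SE 0.12).

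Subunits that form 1 protein, or a ligand and its receptor, were compared across the 12 libraries in 14 pairs, with p-values adjusted over the 14. Pearson's r passed in 3 pairs and Spearman's rho in 1. The levels within a pair share library, scaling and tissue make-up. Permutations ran over all 12 libraries without regard to group, so a group difference in both genes enters r and p. Lama4 and Lamb1, chains of the laminin with alpha 4, had r = 0.92 (permutation p = 3e-05, adjusted p = 0.00042) and rho = 0.96 (permutation p = 1e-05, the smallest that 100000 resamples can give, adjusted p = 0.00014). Without knockout replicates 3 and 4, the libraries farthest from the median, r was 0.88, and it was 0.76 within controls and 0.82 within knockouts. Lama2 and Itga7, the fibre laminin chain and its receptor subunit, had r = 0.86 (permutation p = 0.00034, adjusted p = 0.00238) and rho = 0.72 (permutation p = 0.0108, adjusted p = 0.0505). Without control replicate 1 and knockout replicate 3 r was 0.81, and it was 0.83 within controls and 0.99 within knockouts. Lamb1 and Lamc1 had r = 0.73 (permutation p = 0.00632, adjusted p = 0.0295) and rho = 0.58 (permutation p = 0.0523, adjusted p = 0.183), and r was 0.34 without knockout replicates 3 and 4. Within controls, which hold neither library, r was 0.55, and within knockouts 0.83, so the pooled value depends on those libraries while both groups give a positive r. Lama2 and Lamb1, chains of the fibre laminin, had r = -0.47 (permutation p = 0.122, adjusted p = 0.284) and rho = -0.29 (permutation p = 0.353, adjusted p = 0.455). Within controls r was 0.17 and within knockouts -0.86, and the difference between these was not tested. For the pairs of integrin alpha and beta subunits, r ran from 0.10 for Itgal and Itgb2 to 0.62 for Itgax and Itgb2 (permutation p = 0.0331, adjusted p = 0.116), and 0 of 9 passed. Some differed between groups: r was 0.96 within controls and -0.08 within knockouts for Itgav and Itgb5. For Itgal and Itgb2 it was -0.18 and 0.65, and neither difference was tested.

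**Figure D5:**
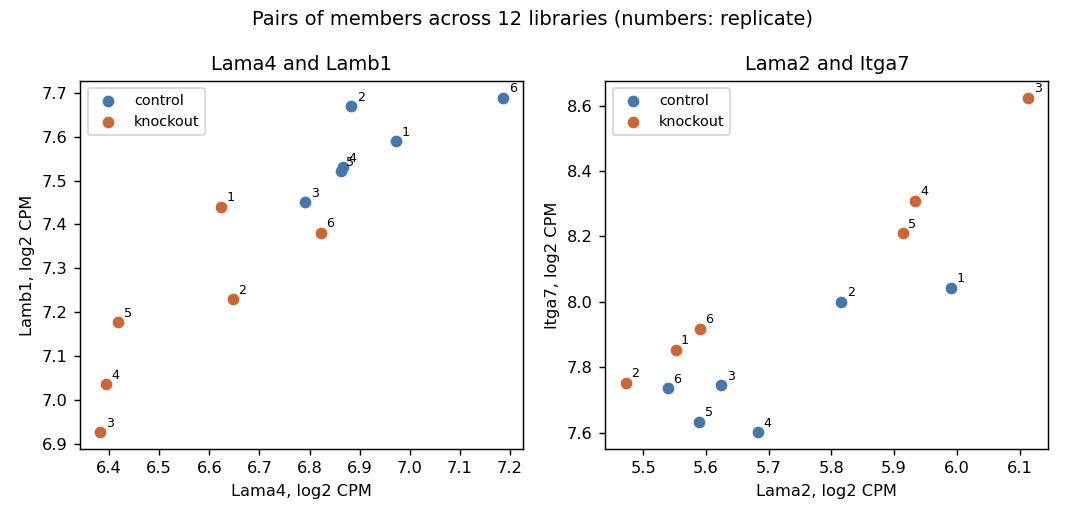
Log2 CPM of Lama4 against Lamb1 (left) and of Lama2 against Itga7 (right) in the 12 libraries, numbered by replicate. Lama4 and Lamb1 are high in the same libraries (r = 0.92), with most knockouts at the lower left, and Lama2 and Itga7 likewise (r = 0.86), with knockout replicate 3 at the upper right.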

How the data were processed

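The values tested are read counts per gene as deposited, made with fastp, HISAT2 2.0.5 and featureCounts on GRCm38 according to the submitters' processing notes. No source used here gives the strand setting of the counting. The deposited FPKM values of the same libraries were used for levels and shares because these allow for gene length. The length is the one given with the counts. For some members it is well above the longest transcript, so comparisons between genes depend on it. All 37 members have the same coordinates in GENCODE M21. Columns were mapped to 6 control and 6 knockout samples by library name.

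Counts were fitted with edgeR 4.0.16 in R 4.3.3: filterByExpr (minimum count 10, minimum total 15), TMM scaling, robust quasi-likelihood F tests and Benjamini-Hochberg adjustment over all 16393 tested genes, threshold 0.05. CPM use TMM library sizes, log2 CPM a prior count of 2. SE were derived from fold change and F. The fit was run on simulated counts, but with larger folds than those of the members, so power at their size was not measured. No 2 of the libraries agreed within sampling noise (30 pairs in the same group, chi-square per degree of freedom 12.9 to 157). Depth sets the precision, and genes under about 1 CPM rest on few counts.

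Correlations used 100000 permutations, two-sided, of log2 CPM. Alternatives were DESeq2 1.42.0, limma-voom (limma 3.58.1), other scalings and filters, FPKM with pseudocounts of 1 and 0.1, a replicate block, 1 surrogate variable (sva 3.50.0) and each library left out. Shared sequence was counted in 50-base words, taking each gene's longest transcript. The values of 1 member are not reported here. Members and lists were chosen with earlier results of these data known. Every member may be named, as may the called genes and the 3 smallest p of each partner list.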

Additional observations from a re-analysis of the deposited data

Results flagged for a closer look

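In 5 of the 74 groups of 6 libraries (37 genes, 2 groups each), 1 library stood far from the other 5: its gap to the nearest exceeded 0.625 of the whole range, Dixon's 95% limit for 6 samples. Chance alone gives this in about 1 in 20 groups. Itga5 was at 157 CPM in knockout replicate 6, against 111 to 118 CPM in the other knockouts. Itga2, at low level, was highest in the same library, at 3.20 CPM against 2.08 to 2.45 CPM. Knockout replicate 2 was highest for Itgb7, at 30.5 CPM against 10.4 to 16.3 CPM, and for Itga2b, at 11.7 CPM against 6.37 to 7.40 CPM. Itgb8 was lowest in control replicate 6, at 1.22 CPM against 2.23 to 2.81 CPM.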

How the results depend on the processing

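The number of called members was 0 with edgeR under every other scaling and filter and with both FPKM fits. It was 3 with DESeq2 and 3 with limma-voom, and 2 (Lama4 and Lamb1) with 1 surrogate variable. With each library left out in turn it was 0 or 1: Lamb1 was called without knockout replicate 1 and Lama5 without knockout replicate 2. The number of called genes in all was 131, 372 with DESeq2, 393 with limma-voom, 237 with the surrogate variable, and 6 to 214 with each library left out. It fell to 24 and 12 without control replicates 2 and 4, to 65 and 72 without control replicates 1 and 3, and to 6, 9, 77 and 35 without knockout replicates 3, 4, 5 and 6, and was 200 and 214 without knockout replicates 1 and 2. Groups did not overlap in 0 members with DESeq2 size factors and in 0 with library totals as scaling, and in 1 to 3 with a library left out (3 without control replicate 3, 2 without knockout replicate 2 or 6). The share of all tested genes was not counted in these settings, and smaller groups overlap less easily.

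The replicate number as a block gave 236 called genes and 2 called members, Lama4 (adjusted p = 0.0101) and Lamb1 (adjusted p = 0.0245, both edgeR quasi-likelihood). The labels do not say what the number marks. Deviations of same-numbered libraries correlated at -0.13 to 0.46, over 0.1 in 2 of 6 pairs. For 1 of 6 numbers the 2 libraries were each other's best match. These correlations cannot settle whether a number marks a pair or a batch.

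Lama4, Lamb1, Lama5 and Itga1 kept their direction and an unadjusted p under 0.05 in 22 of 22 alternatives, Itgb6 in 21 and Itga7 in 15. Directions changed only for members near 0. Itga4 was 0.0048 with DESeq2 size factors, 0.036 with library totals, 0.0039 without a filter, 0.0031 with DESeq2, 0.0028 and 0.0046 with FPKM at pseudocounts 1 and 0.1, and -0.086 to 0.057 with a library left out. Itgax was 0.00070, 0.018 and 5.6e-05 with DESeq2 size factors, library totals and DESeq2, and -0.22 to 0.13 with a library left out. Itgad was 0.078 with limma-voom. With a library left out, Itgad ran from -0.30 to 0.087, Itga2b from -0.11 to 0.17, Itgb3 from -0.042 to 0.16, Itga8 from -0.10 to 0.19, Itga11 from -0.16 to 0.058 and Lama2 from -0.011 to 0.13. The pair Itgav and Itgb5 passed with library totals as scaling (r = 0.74). Pparg stayed lower in knockouts under all 22 alternatives, added for it, Col4a1, Col15a1 and Col4a2 after seeing the data, but passed in 4 of 12 fits with a library left out (adjusted p 0.00769 to 0.0856) and not without a low count filter (adjusted p = 0.0979). Col4a2 was also called with the replicate block (adjusted p = 0.0127) and 1 surrogate variable (adjusted p = 0.0190).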
